A study of Arabidopsis thaliana with 36 samples.

Results

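The pseudouridine (Ψ) sites of the 3′ portion of the cytosolic 25S rRNA were followed in wild-type Arabidopsis thaliana (Col-0) across 9 tissues. Of the 186 rRNA sites in the deposited table, 147 lie in the nuclear rRNA locus and 74 of these in the 25S. The sites described here are the 40 between positions 1875 and 3352 of the 25S, a choice made by position alone, with 3 sites in the loop of helix 69 (Ψ2255, Ψ2259 and Ψ2261) set aside. The closest site on the other side of the boundary was Ψ1825, with fractions of 0.042 to 0.161, and the first site inside was Ψ1875, with 0.034 to 0.067. Positions count from the first base of the 25S.

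Total RNA was profiled by BID-seq, in which bisulfite forms an adduct on Ψ that the reverse transcriptase skips, so that a Ψ appears as a deletion in the read. For each tissue there were 2 bisulfite-treated and 2 untreated input libraries, 36 libraries in 18 groups. Whole young seedlings were used, shoot and root were taken separately from plate-grown plants, rosetta leaf (the spelling of the labels) came from soil-grown plants, cauline leaf, stem, flower and silique from flowering plants, and seed from mature dried material. All were the same accession with no mutant or treatment. Each organ holds many cell types that the values average over, and organ, age and growth conditions cannot be told apart. The deposited value is the Ψ fraction, the share of molecules carrying Ψ at a site, given once per tissue and pooled by the authors over the replicates. There was therefore no replicate spread and no read depth behind any value, no difference below could be tested, and the order of close tissues or sites cannot be told from error. A second deposited value says whether a site passed the authors' filter in a tissue.

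Ψ is an isomer of uridine in which the base is joined to the sugar through carbon rather than nitrogen. In nuclear rRNA most Ψ is made by a dyskerin-type synthase that box H/ACA small nucleolar RNAs guide to each site by base pairing. The 3′ portion of the large-subunit rRNA folds into the functional core of the ribosome: helix 69, which touches the small subunit beside the decoding site, the peptidyl transferase centre, where peptide bonds form, the A loop, which holds the end of the incoming tRNA, and the sarcin-ricin loop, where the translation GTPases bind.

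The sequences of these elements are shown because they place the sites on the ribosome. They were read from the RefSeq TAIR10.1 assembly, plus strand of chromosome 2, and each is written 5′ to 3′ in DNA letters with the T of each site described here in capitals.
Helix 69, chr2:8381-8401, Ψ2265 and Ψ2267: gtgggagtaactatgacTcTc
Peptidyl transferase ring, chr2:8944-8964, Ψ2827: cacagggataactggcTtgtg
A loop, chr2:9049-9069, Ψ2925: ttggattgtTcacccaccaat
Sarcin-ricin loop, chr2:9149-9169, no site: aacctagtacgagaggaaccg
Each element was found by a motif of 9 letters that matched the RNA strand of the 25S once: GTAACTATG for the loop of helix 69, GATAACTGG for the peptidyl transferase ring, TGTTCACCC for the A loop and GTACGAGAG for the sarcin-ricin loop. Ψ2265 lies 3 bases beyond the helix 69 motif, Ψ2827 lies 2 bases beyond that of the peptidyl transferase ring, and Ψ2925 is letter 4 of the A loop motif. Ψ2827 and Ψ2925 are each listed in a run of 2 T, so their Ψ may lie at the neighbouring T. The sarcin-ricin motif holds none of the sites, and the nearest, Ψ3064, is 34 bases away.

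A further set of windows is shown in the order of the groups below. The first group, from Ψ2597 to Ψ2498 as printed, holds sites among those that varied most. The second, from Ψ2844 to Ψ2866 as printed, holds sites at or near saturation.
Ψ2597, chr2:8720-8740: gcggaggacaTtgtcaggtgg
Ψ2494, chr2:8617-8637: gaaataccacTacttttaacg
Ψ3344, chr2:9467-9487: gtggccttgcTgccacgatcc
Ψ3352, chr2:9475-9495: gctgccacgaTccactgagat
Ψ2945, chr2:9068-9088: atagggaacgTgagctgggtt
Ψ2498, chr2:8621-8641: taccactactTttaacgttat
Ψ2844, chr2:8967-8987: agccaagcgtTcatagcgacg
Ψ2350, chr2:8473-8493: ctgtctactaTccagcgaaac
Ψ2417, chr2:8540-8560: cctgttgagcTtgactctagt
Ψ2866, chr2:8989-9009: tgctttttgaTccttcgatgt
The windows of Ψ3344 and Ψ3352 overlap, as do those of Ψ2494 and Ψ2498. The windows printed read the same in the rRNA copy on chromosome 3, except that of helix 69, which differs upstream of the window of Ψ2265. Values of the rRNA copies were not separated.

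The 40 sites lie on bases 8008 to 9485 of chromosome 2. The assembly does not annotate the 25S, but a gene for a miscellaneous RNA, AT2G03875 (7669 to 9399), covers 38 of them, all but Ψ3344 and Ψ3352. Over the same stretch the 25S holds 352 T, of which 11.4% are the sites described here. The base after the Ψ was C at 17 of the 40 sites (42.5%), against 25.3% of all T of the stretch, and A at 3 sites (7.50%), against 18.8%. A run of T held 18 of the sites (45.0%), close to the 47.2% of all T. Within such a run a deletion gives the same read whichever T was skipped, so the Ψ of these 18 sites may lie at another T of the same run. The spacing was uneven. The longest stretch without a site was the 233 bases from Ψ3111 to Ψ3344, while Ψ2135 and Ψ2137, Ψ2265 and Ψ2267, and Ψ2348 and Ψ2350 were each 2 bases apart.

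**Figure D1:**
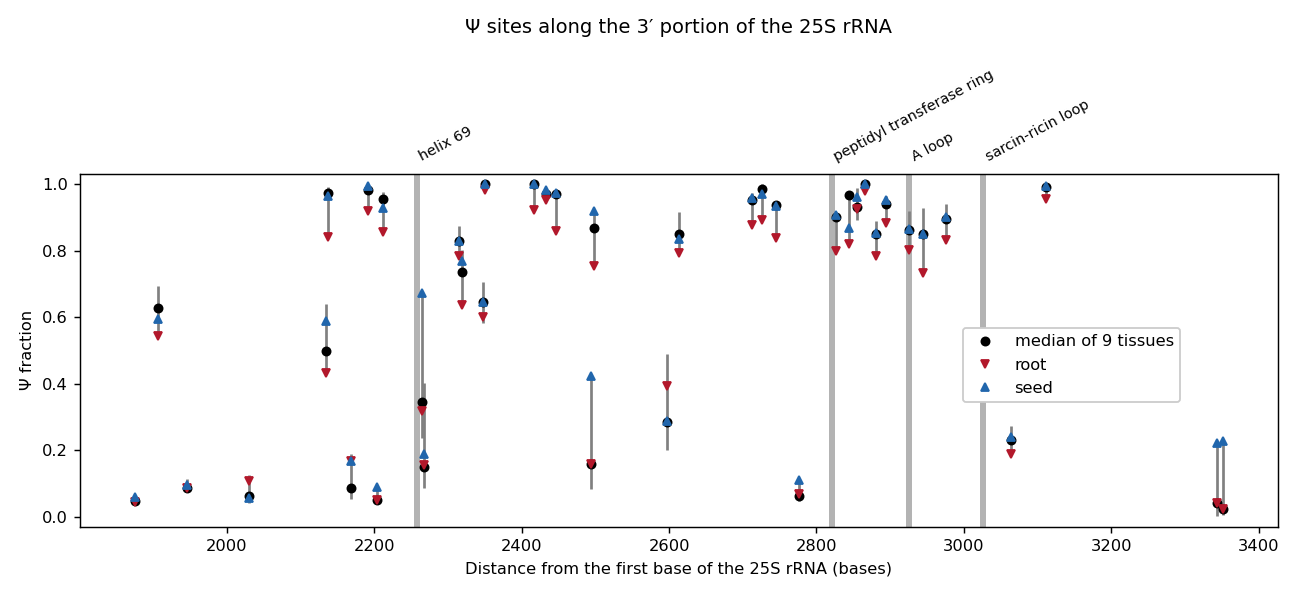
Ψ fraction of the 40 sites against their distance in bases from the first base of the 25S rRNA. Grey lines run from the lowest to the highest of the 9 tissues, black dots are the medians, red triangles root and blue triangles seed, and grey bands mark the 4 motifs. Sites with high medians have root at or near the lower end of the line, and the longest lines belong to Ψ2265, Ψ2494 and Ψ2267.

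The sites fell into levels that ranged from almost no Ψ to all molecules. By the median over the tissues, 16 sites were near-saturated (0.9 or more), 12 were intermediate and 12 were low (below 0.3). The near-saturated share was 40.0%, where 26.3% of all rRNA sites reached that median. Over the 360 values, 21 were listed at 1 and none at 0, and the lowest was 0.002, for Ψ3344 in cauline leaf. The filter was passed by 306 of the 360 values. It was passed in all 9 tissues at 31 of the 40 sites (77.5%), against 52.2% of all rRNA sites. These 31 comprised the 28 near-saturated and intermediate sites and 3 low sites. Level and filter did not coincide exactly, since the lowest value that passed was 0.055 and the highest that did not was 0.205.

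**Figure D2:**
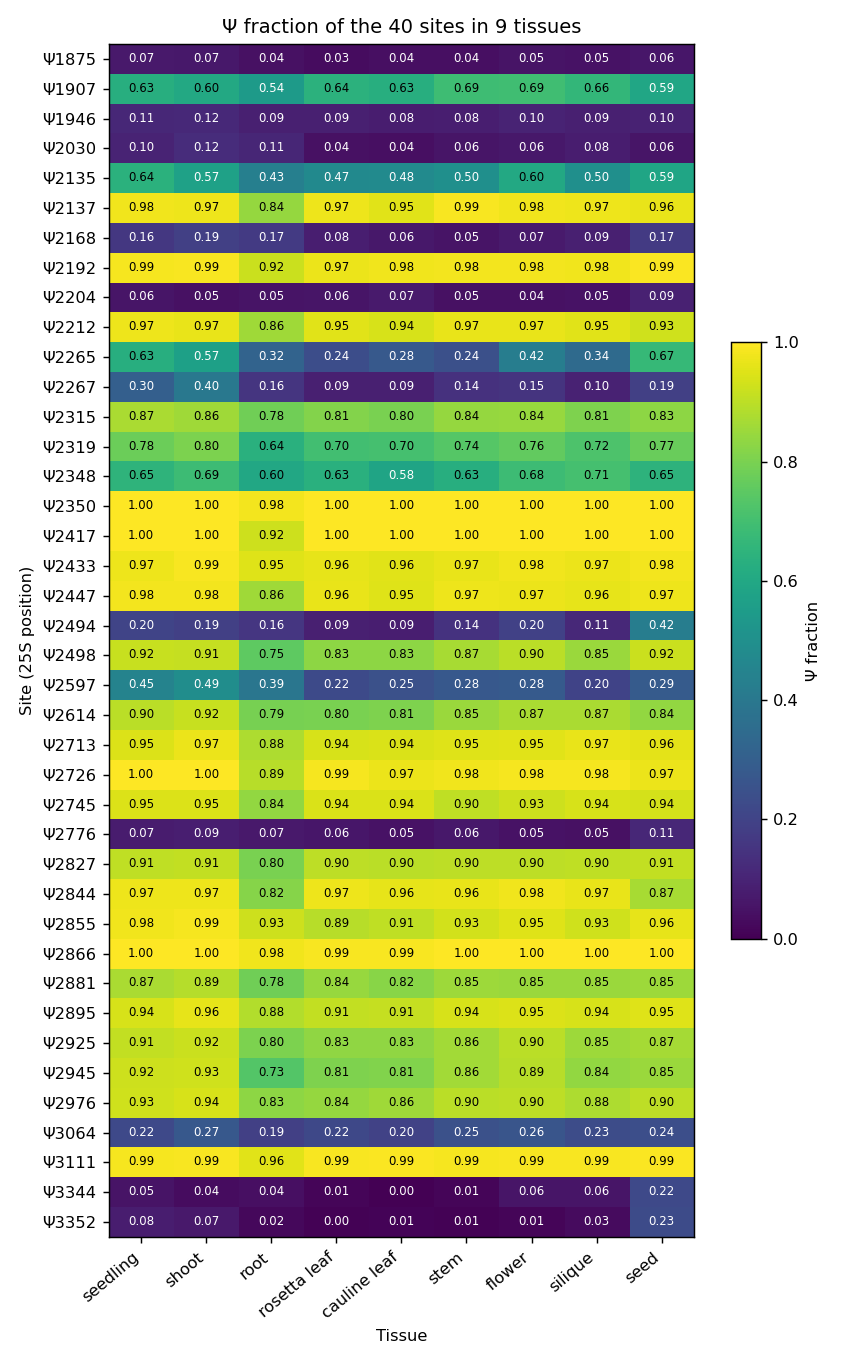
Ψ fraction of each of the 40 sites (rows, in order of 25S position) in each of the 9 tissues (columns), with the value rounded to 2 decimals in each cell. Rows differ far more than columns, and the root column is the darkest in most rows of high fraction.

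The near-saturated sites lie between Ψ2137 and Ψ3111. The most complete were Ψ2417, Ψ2350 and Ψ2866. Ψ2417 was listed at 1 in 8 tissues and at 0.923 in root. Ψ2350 was 1 in 7 tissues, 0.999 in silique and 0.982 in root. Ψ2866 ranged from 0.98 in root to 1 in 5 tissues. At each of these sites root was the tissue with the least Ψ.

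Another 4 sites varied little. Ψ3111 ranged from 0.956 in root to 0.995 in seed with a median of 0.991, and Ψ2433 from 0.951 in root to 0.989 in shoot with a median of 0.971. Ψ2192 ranged from 0.919 in root to 0.993 in seed with a median of 0.983. Ψ2895 ranged from 0.883 in root to 0.963 in shoot with a median of 0.941. In the first 3 of these the 8 tissues other than root lay within 0.033 or less of each other, and at Ψ2895 within 0.054.

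Among the rest, Ψ2137 ranged from 0.842 in root to 0.99 in stem with a median of 0.974, and Ψ2447 from 0.858 in root to 0.984 in shoot with a median of 0.969. Ψ2726 ranged from 0.892 in root to 1 in shoot with a median of 0.985, and Ψ2713 from 0.876 in root to 0.972 in shoot with a median of 0.951. Ψ2212 ranged from 0.857 in root to 0.975 in seedling with a median of 0.955, and Ψ2745 from 0.839 in root to 0.948 in shoot with a median of 0.938. At all 6 root stood alone below the other tissues, and without root their ranges were 0.03 to 0.047.

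Ψ2827 lies just past the peptidyl transferase ring motif. It was 0.908 in shoot, 0.907 in seed, 0.906 in seedling, 0.904 in silique, 0.902 in rosetta leaf, 0.9 in flower, 0.899 in stem and 0.898 in cauline leaf, and 0.8 in root. The 8 tissues other than root spanned 0.01. This site was singled out for its place after the values had been seen.

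Ψ2844 and Ψ2855 broke the pattern in different ways. Ψ2844 was 0.819 in root and 0.869 in seed, while the remaining tissues lay between 0.964 and 0.977. It was the near-saturated site at which seed fell furthest below the others, by 0.101 from their median. Ψ2855 was the near-saturated site at which root was not lowest: it was 0.892 in rosetta leaf, 0.905 in cauline leaf, 0.925 in root, 0.927 in silique, 0.932 in stem, 0.951 in flower, 0.961 in seed, 0.978 in seedling and 0.988 in shoot.

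Among the intermediate sites, Ψ2265, beside the loop of helix 69, had the largest range of the 40 (0.435). It was 0.671 in seed, 0.626 in seedling, 0.569 in shoot, 0.425 in flower, 0.345 in silique, 0.318 in root, 0.28 in cauline leaf, 0.243 in stem and 0.236 in rosetta leaf. It passed the filter in every tissue. Seed, seedling and shoot stood apart at the top, and leaves and stem were at the bottom.

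Its neighbour Ψ2267, a low site with a median of 0.149, was lower in all 9 tissues and ordered them differently. It was 0.401 in shoot, 0.304 in seedling, 0.188 in seed, 0.156 in root, 0.149 in flower, 0.142 in stem, 0.095 in silique, 0.087 in rosetta leaf and 0.086 in cauline leaf, and did not pass in rosetta leaf. Shoot and seedling were again high and leaves low, but seed, the top tissue at Ψ2265, lay nearer to root than to seedling. Of the sites in the loop itself, set aside here, Ψ2259 and Ψ2261 did not share the order. Ψ2259 ranged from 0.272 in root to 0.792 in stem and Ψ2261 from 0.172 in root to 0.541. At both, leaves, stem, flower and silique lay above seedling and shoot. Ψ2255 had the same tissues on top as Ψ2265, with 0.811 in seedling, 0.805 in shoot and 0.729 in seed. Rosetta leaf followed closely at 0.726, and cauline leaf was lowest at 0.492.

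Ψ2135 had the next largest range among the intermediate sites (0.206). It was 0.638 in seedling, 0.604 in flower, 0.588 in seed, 0.572 in shoot, 0.498 in both stem and silique, 0.48 in cauline leaf, 0.475 in rosetta leaf and 0.432 in root. Leaves, stem and silique lay close together, with root below them and the rest above. The near-saturated Ψ2137, 2 bases further, exceeded it in all 9 tissues, and Ψ2135 minus Ψ2137 had a median of -0.41.

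Ψ2945, Ψ2319 and Ψ2498 shared a wide span with root at the bottom. Ψ2945 was 0.929 in shoot, 0.924 in seedling, 0.893 in flower, 0.863 in stem, 0.849 in seed, 0.837 in silique, 0.81 in cauline leaf, 0.805 in rosetta leaf and 0.733 in root. Ψ2319 was 0.803 in shoot, 0.776 in seedling, 0.77 in seed, 0.758 in flower, 0.736 in stem, 0.719 in silique, 0.705 in cauline leaf, 0.697 in rosetta leaf and 0.636 in root. Ψ2498 was 0.919 in seed, 0.915 in seedling, 0.913 in shoot, 0.898 in flower, 0.869 in stem, 0.851 in silique, 0.831 in rosetta leaf, 0.83 in cauline leaf and 0.753 in root. In all 3, seedling, shoot and flower lay above stem, stem above silique, and silique above both leaf types. At Ψ2319 and Ψ2498, which lie in T runs, the listed base may be a neighbouring T.

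Ψ2925, in the A loop, followed the same order. It was 0.919 in shoot, 0.909 in seedling, 0.898 in flower, 0.866 in seed, 0.863 in stem, 0.854 in silique, 0.835 in both leaf types and 0.802 in root. By the deposited fractions, the share of molecules without this Ψ was 0.198 in root, against 0.136 at the median of the other tissues.

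The other 6 intermediate sites ranged as follows. Ψ2976 went from 0.831 in root to 0.94 in shoot with a median of 0.895, and Ψ2614 from 0.794 in root to 0.917 in shoot with a median of 0.849. Ψ2881 went from 0.783 in root to 0.888 in shoot with a median of 0.85, and Ψ2315 from 0.783 in root to 0.874 in seedling with a median of 0.829. Ψ2348 and Ψ1907, the lowest of these 6, had another tissue order. Ψ2348 went from 0.583 in cauline leaf to 0.706 in silique with a median of 0.646, and Ψ1907 from 0.543 in root to 0.693 in flower with a median of 0.627. At Ψ1907 seed (0.593) and shoot (0.603) were the next lowest after root.

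Among the low sites, Ψ2597 passed in all tissues and was 0.489 in shoot, 0.446 in seedling, 0.394 in root, 0.287 in seed, 0.285 in flower, 0.276 in stem, 0.249 in cauline leaf, 0.223 in rosetta leaf and 0.201 in silique. Here root belonged to the high tissues, and exceeded the median of the others by 0.114. Ψ2168 also had root with shoot and seedling, at a lower level, and seed beside them. It was 0.189 in shoot, 0.169 in root and seed, 0.163 in seedling, 0.088 in silique, 0.084 in rosetta leaf, 0.073 in flower, 0.063 in cauline leaf and 0.052 in stem, and passed only in the 4 tissues at the top. Ψ2030 was 0.125 in shoot, 0.109 in root, 0.101 in seedling, 0.079 in silique, 0.064 in flower, 0.057 in stem, 0.055 in seed, 0.044 in rosetta leaf and 0.04 in cauline leaf, and passed only in the first 3. At Ψ2597, Ψ2168 and Ψ2030 shoot, seedling and root all lay above both leaf types, stem, flower and silique.

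At 3 low sites seed was far above every other tissue and was the only tissue in which the site passed. Passing in seed alone is tied to a high seed value, so these sites are no separate evidence that seed is high. Ψ2494 was 0.424 in seed, 0.205 in seedling, 0.195 in flower, 0.19 in shoot, 0.16 in root, 0.145 in stem, 0.114 in silique, 0.088 in rosetta leaf and 0.085 in cauline leaf. Ψ3352 was 0.228 in seed, 0.082 in seedling, 0.069 in shoot, 0.03 in silique, 0.022 in root, 0.014 in flower, 0.011 in cauline leaf, 0.006 in stem and 0.004 in rosetta leaf. Ψ3344 was 0.222 in seed, 0.057 in both flower and silique, 0.053 in seedling, 0.041 in root, 0.035 in shoot, 0.015 in rosetta leaf, 0.012 in stem and 0.002 in cauline leaf. The single seed value lay above those of the other 8 tissues at all 3. Leaving seed out lowered their ranges from 0.339, 0.224 and 0.22 to 0.12, 0.078 and 0.055. Ψ3344 and Ψ3352 are 8 bases apart near the 3′ end of the 25S, and reads that cover both are shared between them.

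**Figure D3:**
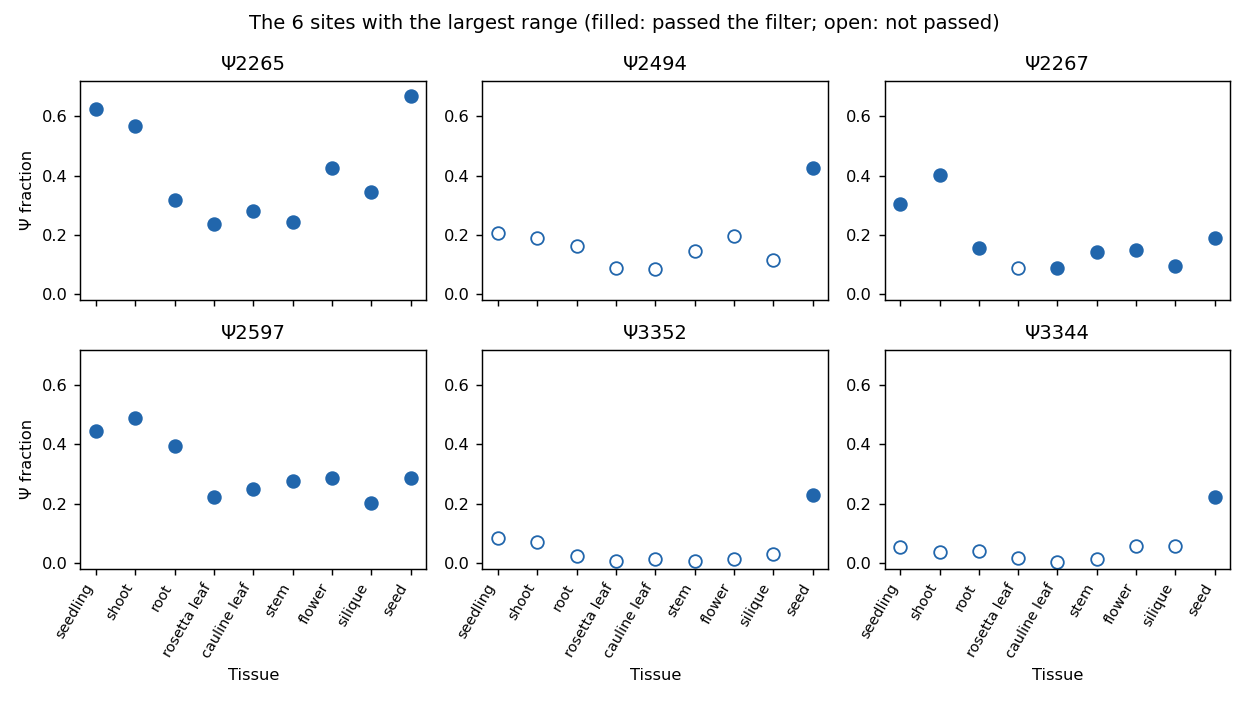
Ψ fraction by tissue of the 6 sites with the largest range, 1 panel per site on the same scale. Filled circles passed the authors' filter and open circles did not. Seed stands alone at Ψ2494, Ψ3352 and Ψ3344, while shoot and seedling are the highest at Ψ2267 and Ψ2597.

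The remaining low sites varied little. Ψ2776 was 0.112 in seed, 0.085 in shoot, 0.075 in seedling, 0.068 in root, 0.064 in stem, 0.062 in rosetta leaf, 0.048 in flower, 0.047 in cauline leaf and 0.046 in silique, and passed in seed and shoot. Ψ2204 was 0.091 in seed, 0.073 in cauline leaf, 0.055 in seedling and rosetta leaf, 0.051 in root, 0.049 in silique, 0.046 in shoot and stem and 0.043 in flower, and passed in the 4 highest. Ψ1875 was 0.067 in seedling, 0.065 in shoot, 0.061 in seed, 0.052 in flower, 0.047 in silique, 0.044 in root, 0.04 in cauline leaf and stem and 0.034 in rosetta leaf, and passed in the 3 highest. At Ψ2776 and Ψ2204 seed was again the highest tissue. Ψ1946 passed everywhere and ranged from 0.081 in cauline leaf to 0.115 in shoot with a median of 0.088. Ψ3064, the site nearest to the sarcin-ricin loop, ranged from 0.19 in root to 0.274 in shoot with a median of 0.231 and passed everywhere.

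Across the 40 sites, root was the tissue that stood lowest. It alone held the lowest fraction at 26 sites (65.0%), against 47.3% of all rRNA sites, and at 34 of the 40 it was lower than the median of the other 8, against 71.5%. The median fraction of root minus the median of the other tissues' medians was -0.0712 over the 40 sites, -0.123 in the 5′ portion of the 25S and -0.11 in the 18S. These parts differ in the levels of their sites. Over near-saturated sites alone, root minus the median of the other tissues had a median of -0.077 here. It was -0.038 in the 5′ portion of the 25S, -0.0767 in the 18S and -0.0645 over all rRNA. Within the 40 the place of root varied with the level of the site. Root was alone lowest at 15 of the 16 near-saturated and 10 of the 12 intermediate sites, and at 1 of the 12 low sites, Ψ3064. Counts by class were not made over all rRNA sites, so this pattern cannot be called particular to the 40. The exceptions among the higher sites were Ψ2855, Ψ2265 and Ψ2348. Root minus the median of the other tissues had a median over sites of -0.077 in the near-saturated class (from -0.151 at Ψ2844 to -0.0165 at Ψ2855), -0.0675 in the intermediate class and -0.0005 in the low class. Among the low sites, root went from 0.0455 below the others at Ψ3064 to 0.114 above them at Ψ2597. No root value reached 1, and the highest was 0.982.

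**Figure D4:**
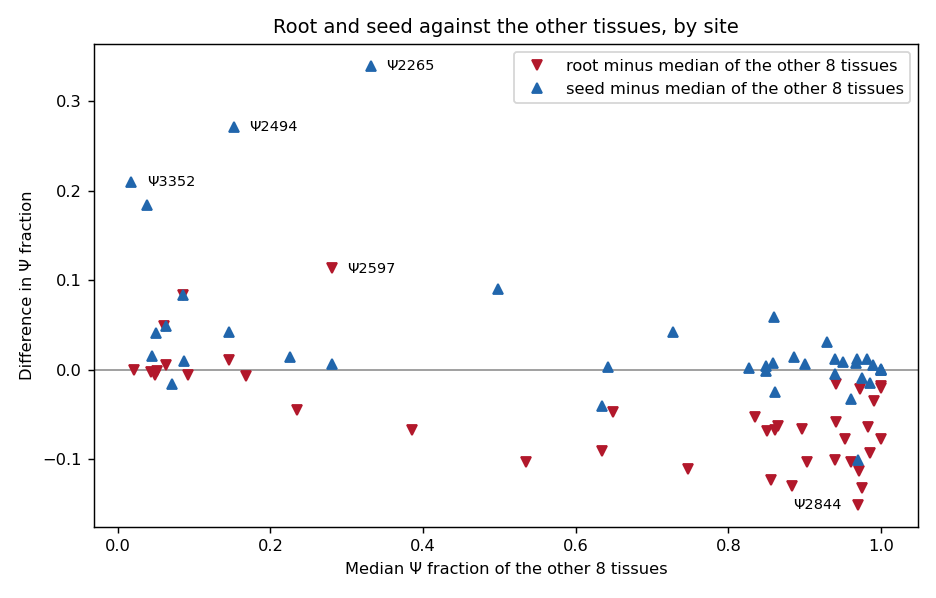
Difference in Ψ fraction between root (red) or seed (blue) and the median of the other 8 tissues, against that median, with 1 point per site and tissue. Root lies below 0 at every site of median fraction above 0.3, and the largest seed differences, at Ψ2265, Ψ2494, Ψ3352 and Ψ3344, belong to sites at which the median of the other tissues lay between 0.018 and 0.332.

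At the near-saturated sites the same values can be read as the share of molecules without Ψ. Its median over the 16 sites was 0.113 in root and between 0.014 (shoot) and 0.045 (cauline leaf) elsewhere. Without root the median range of this class fell from 0.096 to 0.032, and that of the intermediate class from 0.137 to 0.103. The low class kept 0.111 with or without root.

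**Figure D5:**
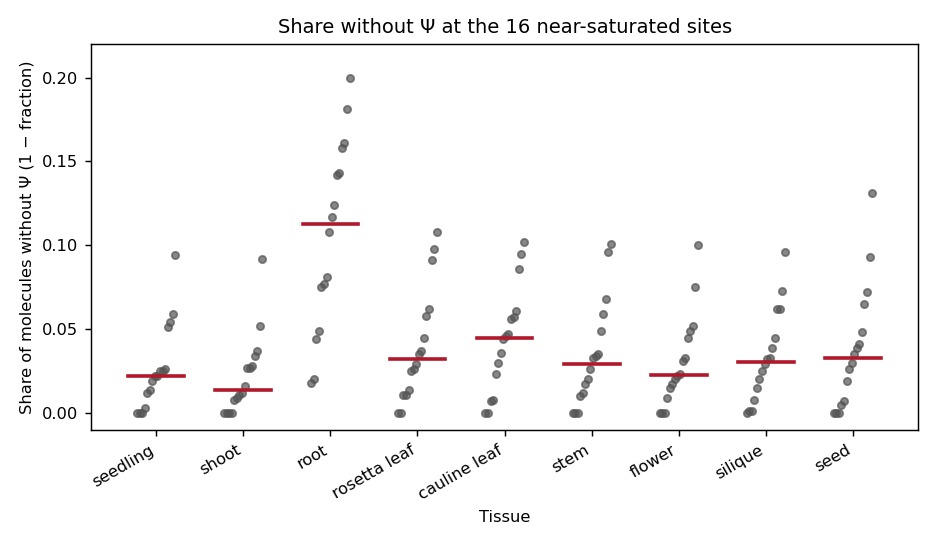
Share of molecules without Ψ (1 minus the Ψ fraction) at the 16 near-saturated sites in each of the 9 tissues. Each dot is a site, ordered within a tissue by value, and the red line is the median. The root median is 0.113, and those of the other tissues lie between 0.014 and 0.045.

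Seed lay on the high side at most of the low sites, as it did at most low sites of all rRNA. At 11 of the 12, all but Ψ2030, it exceeded the median of the other tissues, with a median difference of 0.0418, and 81.0% of the 84 low sites of all rRNA did the same. It alone was highest at 5 of the 12: Ψ2204, Ψ2494, Ψ2776, Ψ3344 and Ψ3352. That share (41.7%) was no higher than the 50.0% of all low rRNA sites. Of the 5, Ψ2494, Ψ3344 and Ψ3352 passed the filter in seed alone, so the count is not independent of their seed values. Over all 40 sites the median seed fraction differed from the median of the tissue medians of the others by -0.0025, against 0.076 in the 5′ portion of the 25S and 0.15 in the 18S. These parts differ in the levels of their sites, so the values do not show that seed is less high here. With means in place of medians the difference over the 40 sites was 0.0358. In the near-saturated and intermediate classes its median differences were 0.0027 and 0.0057. Seed also passed the filter at 39 of the 40 sites, all but Ψ2030, and each other tissue at 32 to 36. Whether depth moved with this count is not known from the values used here. The median fraction of the low sites was 0.179 in seed and 0.0605 to 0.12 in the other tissues.

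Shoot was the tissue most often on top. It alone was highest at 20 of the 40 sites (50.0%), against 29.0% of all rRNA sites, and these were 8 near-saturated, 6 intermediate and 6 low. Seedling alone was highest at 4. Shoot and seedling both lay above both leaf types at 33 sites (82.5%), where 71 of the 146 other rRNA sites (48.6%) had this order. The exceptions were Ψ1907, Ψ2137, Ψ2204, Ψ2350, Ψ2417, Ψ2844 and Ψ3111. Among the 40, the distance was widest at Ψ2265 and Ψ2267, beside the loop of helix 69. The mean of shoot and seedling was 0.598 and that of the leaf types 0.258 at Ψ2265, and 0.353 and 0.0865 at Ψ2267. Next came Ψ2597, with 0.468 and 0.236, then Ψ2135 and Ψ2945, with gaps of 0.128 and 0.119. In the loop itself, set aside here, both leaf types lay above shoot and seedling at Ψ2259 and Ψ2261, and below them at Ψ2255.

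The 2 leaf types were the closest pair of tissues, with a median absolute difference of 0.0075 over the 40 sites, with rosetta leaf higher at 20, cauline leaf at 17 and 3 equal. Shoot and root were the farthest, with 0.0845, and shoot was higher at 38 of the 40 sites, against 81.2% of all rRNA sites. The exceptions were Ψ2204 and Ψ3344, at which root was slightly above shoot. Pearson's r across the 40 sites was between 0.971 and 0.999 for all pairs of tissues. The sites share libraries and span most of the scale, so r mainly reflects the levels of the sites.

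Set beside the rest of the nuclear rRNA, the 40 sites had a higher median level and none of the largest ranges. The median of the site medians was 0.85, against 0.744 for the 31 sites of the 5′ portion of the 25S and 0.387 for the 66 sites of the 18S. Their median range was 0.109, against 0.129 and 0.166. A range of at least 0.1 occurred at 24 of the 40 sites (60.0%), close to the 65.6% of all rRNA sites, and a range of at least 0.3 at 3 (7.50%), against 22.6% in the 5′ portion of the 25S and 22.7% in the 18S. The largest range was 0.435, against 0.778 and 0.947. The low share of ranges of at least 0.3 and the largest range depended on leaving out Ψ2255, Ψ2259 and Ψ2261. These sites, set aside from the same stretch, had ranges of 0.319, 0.52 and 0.369. With them the median range was 0.117. The difference in median level from the 5′ portion of the 25S, 0.106, depended on the sites entering: it was 0.006 when only sites passed in all 9 tissues were kept, and 0.402 when the 4 sites before position 2100 were counted with the 5′ portion. These are descriptions, since sites on a single RNA share their libraries and are not replicates, and none of the differences between the regions was tested.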

How the data were processed

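Total RNA of 9 tissues was profiled by BID-seq. The authors pooled the gapped and ungapped reads of both treated replicates of a tissue, turned the gap ratio into a Ψ fraction with a calibration curve, and deposited 1 fraction (0 to 1) per site and tissue with a TRUE or FALSE value for their filter, whose thresholds are not given in the sources used here. Counts were not used, so depth is unknown and no interval or error could be computed. The tRNA table was not used here.

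Table positions were placed on TAIR10.1 by requiring a T at each nuclear site. With the best offset on chromosome 2 all 147 did so, with the next best 58. A copy on chromosome 3 also took all 147. The 2 copies differ at 5 of the 1519 bases of the stretch.

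Every site was named. Full values were given for the 10 sites with the largest range, sites not passed in all 9 tissues and sites within 10 bases of a loop motif. The range is the highest minus the lowest fraction. The sites, lists and rules were chosen with earlier results of these data known. Alternatives changed the summary, the sites, the tissues and the cutoffs. The summaries were tested on simulated data (Python 3.11.15, pandas 2.3.3, numpy 2.4.6, matplotlib 3.10.9).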

Additional observations from a re-analysis of the deposited data

Results flagged for a closer look

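Of 5 summaries taken per tissue over the 40 sites, 2 held a tissue far from the others, judged by its gap to the nearest tissue as a share of the whole range (Dixon's criterion, which flags about 1 in 20 groups by chance). The 9 values are different tissues and not replicates. The median fraction of the near-saturated sites was 0.8875 in root and 0.955 to 0.986 in the other tissues, a gap of 0.685 of the range. The near-saturated class was set by a median of 0.9 or more over these same tissues. So close to 1, a tissue has more room to differ downward than upward. The median fraction of the low sites was 0.1785 in seed and 0.0605 to 0.12 in the other tissues, a gap of 0.496 of the range, barely over the critical value for 9 values. The low class was set by the median over these same tissues, and Ψ2494, Ψ3344 and Ψ3352 in it passed the filter in seed alone. The sites were thus not chosen independently of seed, and the flag for seed is no evidence that seed is high.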

How the results depend on the processing

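Of 34 alternatives, 28 kept the direction and stayed within 1.5-fold of the value reported. The difference between root and the median of the other tissues in the median over sites (-0.0712) ranged from -0.09 to -0.0504, and that at the near-saturated sites (-0.0825) from -0.0965 to -0.0717. Root alone was lowest at 26 to 28 sites, and 30 to 34 sites were detected in all 9 tissues. The seed difference over all sites was close to 0 and its sign did not hold: -0.0025 as a median, 0.0358 as a mean, 0.0075 over sites passed in all 9 tissues and -0.007 with the 3 helix 69 loop sites added. The median range of 0.109 became 0.061 without root and seed. The median level of the sites minus that of the other 25S sites (0.106) became 0.006 over sites passed in all 9 tissues and 0.402 when the 4 sites before position 2100 were counted with the others. The cause of these changes was not tested. No site was listed at 0 and no pair of sites shared all 9 values, so the alternatives on zeros and on identical sites could change nothing. They are counted among the 28 and say nothing about how stable the results are. No paired analysis was possible because the deposited fractions are 1 value per tissue, pooled over the replicates. No read depth was available to set the precision of any value.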
